A study of Mus musculus with 45 samples.

Results

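The Schlafen (Slfn) genes Slfn1, Slfn2, Slfn3, Slfn4, Slfn5, Slfn8 and Slfn9 were examined in bone marrow-derived macrophages of 3 Famin genotypes. The genes were found by their symbols in the authors' table of CPM values (read counts scaled to each library's total) and then by Ensembl identifier in their table of raw counts. All 7 were found among the 29307 genes of the count table, and all 7 passed the low-count filter that left 12905 genes for testing.

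RNA was sequenced from 45 cultures of 15 C57BL/6N mice aged 6 to 10 weeks, 5 mice per genotype. Famin (also called Lacc1) encodes a purine nucleoside-metabolizing enzyme, and the mice carried Famin p.254I (the non-risk form of the human protein), p.254V (a form linked to risk of inflammatory disease) or p.284R (a form found in monogenic arthritis and bowel disease). Marrow cells of each mouse were grown for 6 days in M-CSF and then either left unpolarized (M0), kept for another 24 h with LPS (20 ng/ml) plus interferon-γ (50 ng/ml) to give M1 cells, or with IL-4 (20 ng/ml) to give M2 cells. The genotypes differ in coding residues of Famin in every cell, with p.254V the form that C57BL/6 mice naturally carry, so read counts per gene cannot check the genotype labels, and the cells are cultured macrophages and not a tissue.

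Libraries held 17239009 to 43740283 counted reads (median 27553642). The macrophage markers Adgre1, Csf1r, Cd68, Itgam, Cd14, Fcgr1 and Mertk were present in every group, with a summed level of 5473 to 11467 CPM. Of the polarization markers, Cxcl9 was higher in M1 than in M0 by 12.48 on the log2 scale and Retnla was higher in M2 than in M0 by 14.66, the directions known for these stimuli. Markers of other cells were low but moved with polarization: the neutrophil sum had medians of 88.9, 70 and 35.2 CPM in M0, M1 and M2 (17.8 to 330 CPM over all libraries), the monocyte sum (Ly6c2 and Ccr2) 56.4, 152 and 72.6 CPM, the fibroblast sum 19.4, 4.99 and 8.51 CPM, the dendritic-cell sum 0.83, 0.699 and 7.44 CPM and the T-cell sum 30.6, 10.8 and 5.42 CPM, the last nearly all Cd4 with Cd3e at a median of 0. Their part in the results was not tested.

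Schlafen proteins are a vertebrate family named after the German word for sleep, because forced expression of founding members slowed cell growth and thymocyte development. The genes are induced by interferons and by Toll-like receptor ligands in myeloid cells and T cells. The short members (Slfn1 and Slfn2) hold the shared core of the family, the intermediate members (Slfn3 and Slfn4) extend it, and the long members (Slfn5, Slfn8 and Slfn9) add a helicase-like domain. Slfn2 keeps resting T cells and monocytes quiescent and shields transfer RNAs from cleavage.

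The 7 genes lie in a single cluster of 263806 bases on mouse chromosome 11, from 82951349 to 83215154 (GRCm38, GENCODE M21 annotation). Slfn5 opens the cluster on the plus strand (82951349 to 82964840), followed on the minus strand by Slfn9 (82978390 to 82991830), Slfn8 (83002158 to 83020810) and the transcribed pseudogene Slfn10-ps (83028130 to 83040042). Slfn2 (83065112 to 83070678), Slfn1 (83116849 to 83122670), Slfn4 (83175186 to 83190216) and Slfn3 (83191330 to 83215154) follow on the plus strand. Part of their sequence also occurs in the exons of other genes, within the family or outside it. Of all 50-base stretches of their exons, the length of a read, this held for 0.606% in Slfn1, 4.272% in Slfn2 and 11.069% to 15.987% in the other 5 genes. The largest overlap among the members is that of Slfn8 with Slfn9, at 389 such stretches, and Slfn3 shares 252 with Slfn4. Outside the members, Slfn3 shares 220 and Slfn4 161 with Gm11427. How reads with more than 1 match were counted is not given in the sources used here, so levels of Slfn3, Slfn4, Slfn8 and Slfn9 are uncertain to that extent. Slfn5 has no such stretch in common with another member, but overlaps an antisense gene, Slfn5os, with which it shares 467. The highest level of Slfn5os was 0.296 CPM.

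Because the 7 genes moved together on polarization, the bases before their RefSeq starts (GRCm38.p6) are shown, 5′ to 3′ on the gene's own strand, with matched letters in capitals. The first set carries the letters of an interferon-stimulated response element (ISRE), which are GAAA, any 2 bases and GAAA, on either strand. These letters begin 155 bases before the start of Slfn5, 48 before that of Slfn8 and 45 before that of Slfn9, and they are in the promoters of 3 of the 7 genes against 3.99% of 27025 genes. Slfn8 has another RefSeq start, 88 bases downstream, from which the same letters begin 136 bases before. The stretches are chr11:82951882-82951981 (plus strand, 220 to 121 bases before the start), chr11:83020811-83020910 and chr11:82991831-82991930 (minus strand, the last 100 bases before the start). The RefSeq start of Slfn5 lies 753 bases inside the GENCODE gene given above, so its stretch is within that longer model.
Slfn5: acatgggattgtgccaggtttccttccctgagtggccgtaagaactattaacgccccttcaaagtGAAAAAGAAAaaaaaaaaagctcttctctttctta
Slfn8: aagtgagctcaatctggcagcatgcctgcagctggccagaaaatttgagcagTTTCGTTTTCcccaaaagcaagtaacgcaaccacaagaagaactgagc
Slfn9: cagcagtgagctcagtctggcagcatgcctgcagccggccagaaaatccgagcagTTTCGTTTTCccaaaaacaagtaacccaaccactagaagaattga
Slfn8 and Slfn9 were alike along the 250 bases before their starts (82.4% identical bases in a global alignment), while no other pair of members passed 56.8%.

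The second set lacks the ISRE letters within 250 bases before and 50 bases after the start, but the 4 genes that follow each other on the plus strand hold the letters ACTTCCTGG, which were noticed in these sequences and not chosen in advance. They begin 74 bases before the start of Slfn1, 55 before that of Slfn2, 42 before that of Slfn3 and 73 before that of Slfn4, on the plus strand in each, and are in 0.843% of 32851 RefSeq promoters of that length. The stretches are chr11:83116720-83116819, chr11:83065012-83065111, chr11:83191230-83191329 and chr11:83175086-83175185, the last 100 bases before each start.
Slfn1: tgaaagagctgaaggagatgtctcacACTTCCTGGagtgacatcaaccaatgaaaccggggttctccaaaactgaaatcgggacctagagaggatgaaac
Slfn2: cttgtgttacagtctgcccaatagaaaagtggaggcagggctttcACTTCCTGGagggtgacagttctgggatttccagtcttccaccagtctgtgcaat
Slfn3: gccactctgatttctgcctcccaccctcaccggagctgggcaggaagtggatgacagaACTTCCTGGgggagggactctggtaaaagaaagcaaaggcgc
Slfn4: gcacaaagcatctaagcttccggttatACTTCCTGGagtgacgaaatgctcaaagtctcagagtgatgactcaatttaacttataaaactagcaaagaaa
Letters of a STAT6 site (TTC, any 4 bases and GAA) were in none of the 7 windows, against 6.95% of all promoters. These are matches of letters in a window, and binding was not measured.

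The members differed widely in level. In unpolarized M0 macrophages the median CPM per kilobase of exon over 15 libraries was 196 for Slfn2, 49.7 for Slfn5, 22.8 for Slfn8, 5.51 for Slfn9, 3.6 for Slfn1, 2.48 for Slfn3 and 1.37 for Slfn4. Each of the first 4 genes stood above the next in at least 13 of 15 libraries, while Slfn1 was above Slfn3 in 10 of 15. Slfn2 and Slfn5 together made up 81.4% (median; range 73.4% to 83%) of the summed CPM of the 7 genes in M0, 69.4% in M1 and 89% in M2. In M1 the order changed, with Slfn1 second at 113 CPM per kilobase behind Slfn2 at 429, and above Slfn5 (96.4) in 12 of 15 libraries. In M2 Slfn1 fell to the sixth place at 0.866 CPM per kilobase, above Slfn4 at 0.511 in 11 of 15 libraries. The fewest reads behind any value were 14, for Slfn1 in an M2 library.

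**Figure D1:**
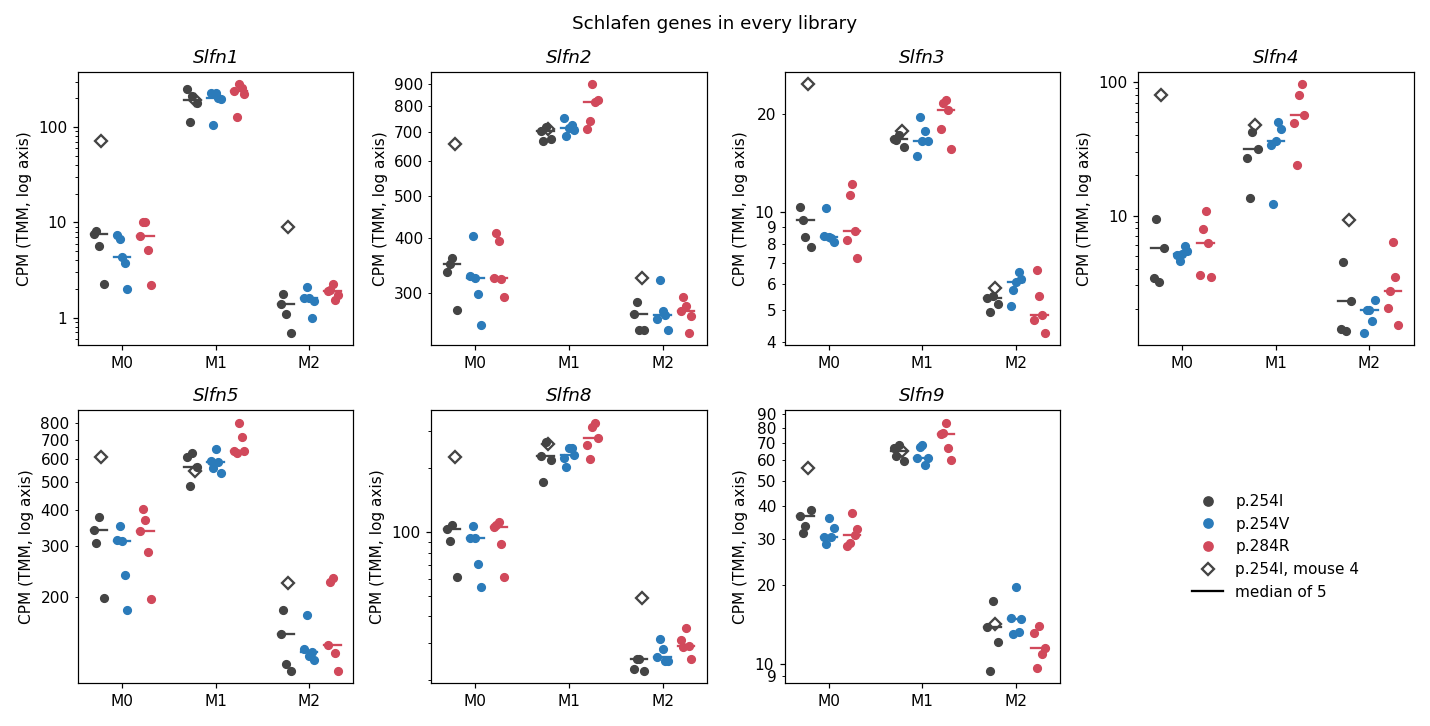
Level of each Schlafen gene in every library, in CPM scaled by TMM on a log axis, by polarization and genotype. Points are single libraries (5 mice per group), lines are group medians, and the open diamond is mouse 4 of p.254I. Every M1 library lies above every M2 library for all 7 genes, and the diamond is the highest M0 point in each panel.

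M1 polarization was compared with M0 over the 3 genotypes to ask how the inflammatory stimulus changed these genes. All 7 were higher in M1 at an adjusted p under 0.05, whereas 37% of all genes tested were called higher. The changes ran from 0.83 to 4.55 on the log2 scale, with a median of 1.06 over the 7 genes and of -0.03 over all genes. In bulk RNA a change in a gene's share can come from more cells that express it or from more RNA per cell, and these cannot be told apart.

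Among the short members, Slfn1 ranged from 1.99 to 72 CPM in M0 (median 6.7) and from 105 to 281 CPM in M1 (median 210). No M1 library overlapped M0, and the 23.4-fold rise (log2 4.55 ± 0.34 SE, adjusted p = 2.7e-15) was the largest in the family. Slfn2, already the most abundant, went from a median of 327 CPM (253 to 656) to 715 CPM (667 to 899), again without overlap, a 2.08-fold rise (log2 1.06 ± 0.08 SE, adjusted p = 1.3e-15). Both were higher in M1 than in M0 in 15 of 15 mice.

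Among the intermediate members, Slfn4, a gene of myeloid cells, ranged from 3.17 to 80.1 CPM in M0 (median 5.43) and from 12.2 to 96.7 CPM in M1 (median 42.5). The ranges overlapped through a single M0 library, described further on, and the rise was 4.7-fold (log2 2.23 ± 0.35 SE, adjusted p = 2.7e-07), in 14 of 15 mice. Slfn3 showed the smallest change of the family, from a median of 8.47 CPM (7.25 to 24.7) to 17.2 CPM (14.9 to 22.1), which was 1.77-fold (log2 0.83 ± 0.11 SE, adjusted p = 4e-09).

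The long members rose by 1.91-fold to 2.52-fold. Slfn8 went from a median of 93.4 CPM (54.7 to 227) to 249 CPM (173 to 330), with a log2 change of 1.33 ± 0.13 SE (adjusted p = 5.3e-12). Slfn9, its close relative, went from 32.9 CPM (28.3 to 56.1) to 66.8 CPM (57.7 to 83.6), with a log2 change of 0.96 ± 0.07 SE (adjusted p = 4.7e-15) and no overlap. Slfn5 went from 314 CPM (180 to 610) to 610 CPM (484 to 803), with a log2 change of 0.93 ± 0.13 SE (adjusted p = 2.2e-08).

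Every M1 library stood above every M0 library for 3 of the 7 genes (Slfn1, Slfn2 and Slfn9), and 15.2% of all genes separated in that way. The overlap in the other 4 genes came from the M0 library of mouse 4 of p.254I alone. Without that library all 7 separated, against 17% of all genes.

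M2 polarization was compared with M0 to ask what IL-4 did to the same genes. All 7 were lower in M2 at an adjusted p under 0.05, against 39.6% of genes called lower, and each was lower in 15 of 15 mice. The changes ran from -0.37 to -2.07, with a median of -1.35 against -0.03 over all genes.

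Slfn1 fell furthest, from a median of 6.7 CPM in M0 to 1.61 CPM (0.696 to 9) in M2 (log2 -2.07 ± 0.38 SE, adjusted p = 6.6e-06). Slfn8 fell by 1.78 ± 0.13 SE on the log2 scale to a median of 25.7 CPM (22 to 49), below every M0 library (adjusted p = 4.4e-15). Slfn4 fell by 1.63 ± 0.38 SE to 2.02 CPM (1.32 to 9.21, adjusted p = 0.0002), with overlap between the groups. Slfn9 fell by 1.35 ± 0.08 SE to 13.3 CPM (9.42 to 19.7, adjusted p = 7.6e-19), and Slfn5 by 1.07 ± 0.13 SE to 132 CPM (111 to 233, adjusted p = 1.3e-09). Slfn3 fell by 0.87 ± 0.11 SE to 5.52 CPM (4.26 to 6.65, adjusted p = 3.8e-09). Slfn2 changed least, from 327 CPM to 268 CPM (243 to 325), a 1.3-fold fall (log2 -0.37 ± 0.08 SE, adjusted p = 4.1e-05).

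M2 libraries lay below every M0 library for Slfn3, Slfn8 and Slfn9, a separation that 9.78% of all genes showed. For Slfn1, Slfn2, Slfn4 and Slfn5 the ranges overlapped. Without the M0 library of mouse 4 of p.254I the same 3 genes separated, against 10.2% of all genes. Without all 3 libraries of this mouse the log2 change of Slfn4 was -1.22 in place of -1.63.

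**Figure D2:**
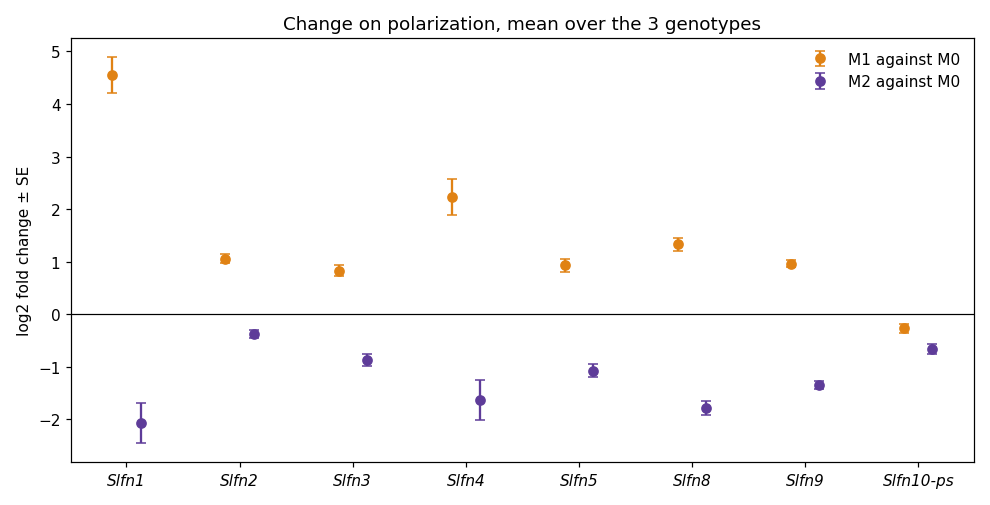
Log2 fold change of each Schlafen gene in M1 and in M2 against M0, as the mean over the 3 genotypes, with bars of 1 SE from the edgeR fit (15 libraries per polarization). The 7 members lie above 0 in M1 and below 0 in M2, while the pseudogene Slfn10-ps lies below 0 in both.

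A direct comparison of M1 with M2 gave the widest differences. All 7 genes were higher in M1, against 39% of genes called higher, and every M1 library lay above every M2 library for each of them, as it did for 17.6% of all genes. The difference was 97.9-fold for Slfn1, 14.6-fold for Slfn4, 8.68-fold for Slfn8, 4.97-fold for Slfn9, 4-fold for Slfn5, 3.23-fold for Slfn3 and 2.69-fold for Slfn2. M1 and M2 were each compared with the same M0 libraries, so the opposite signs of the changes are not independent of each other. Of all genes tested, 11.4% were called higher in M1 and lower in M2 than in M0.

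The pattern did not extend to the other Schlafen loci. Slfn10-ps, between Slfn8 and Slfn2, was lower in M1 (median 27.8 CPM) than in M0 (median 32.5 CPM), by 0.27 ± 0.09 SE on the log2 scale (adjusted p = 0.0049), and lower in M2 (median 21.6 CPM) by 0.66 ± 0.09 SE (adjusted p = 1.1e-08). It shares 423 of its 50-base stretches with Slfn8 and 483 with Slfn9, and its change in M1 had the opposite sign to theirs. Slfn14, just outside the cluster, reached at most 0.0792 CPM, and Slfnl1 on chromosome 4 at most 0.0721 CPM, and neither passed the low-count filter.

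**Figure D3:**
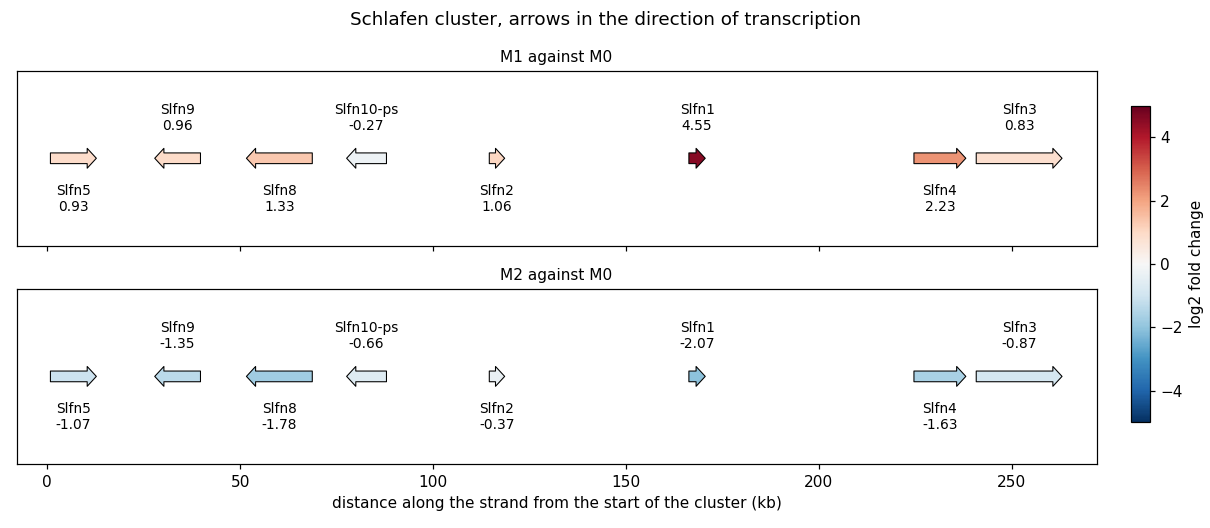
The Schlafen cluster drawn to scale, with distance from the start of Slfn5 in kilobases and arrows in the direction of transcription. Colour and the number at each gene give the log2 fold change of M1 (upper panel) and M2 (lower panel) against M0. The largest values belong to Slfn1 (4.55 and -2.07), in the middle of the plus-strand genes.

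Genes around the cluster moved in both directions. Of 57 annotated genes outside the family within 500 kb, 22 were tested. In M1 8 of them were higher than in M0, 7 lower and 7 were not called, where 37% of all genes were higher and 40.3% lower. In M2 the counts were the same, 8 higher, 7 lower and 7 not called, where 36.8% of all genes were higher and 39.6% lower. The neighbours with the direction of the Schlafen genes in both comparisons were Heatr9 (4.97 in M1 and -1.65 in M2) and Wfdc17 (0.68 and -0.20), which are 9.09% of the 22 tested, near the 11.4% of all genes. Of the chemokine genes nearby, Ccl9 (-2.77 in M1 and 1.40 in M2 on the log2 scale) and Ccl3 (-1.66 and 1.80) moved the other way in both. Ccl6 was lower in M1 (-1.09) and not called in M2 (0.22), and Ccl4 was not called in M1 (-0.33) and higher in M2 (2.07). Ccl5 was higher in M1 (5.07, more than any Schlafen gene) and not called in M2 (-0.44).

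Interferon signalling genes were described beside the Schlafen genes, since the family is interferon-induced. Of 29 listed genes 28 were tested, and 17 of these (60.7%) were higher in M1 and lower in M2 than in M0. Of all genes tested, 11.4% had that pattern. The 17 included the transcription factors Stat2 (1.93 and -0.63) and Irf7 (3.29 and -2.11), and the effectors Isg15 (3.34 and -1.17) and Ifit3 (2.33 and -4.26). In M1 23 were higher than in M0, 3 were lower and 2 were not called, where 37% of all genes were higher and 40.3% lower. The median log2 change of the 28 genes was 2.19. In M2 4 were higher, 20 lower and 4 not called, where 36.8% of all genes were higher and 39.6% lower. The median log2 change of the 28 genes in M2 was -0.69. Socs1, a feedback inhibitor of cytokine receptors, was higher in both (7.33 and 5.15), and the receptor gene Ifngr1 was lower in both (-0.55 and -0.39).

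Cell-cycle genes were listed because of the family's name for growth arrest. Of 14 genes, 11 were lower in M1 than in M0, Ccne1 was higher (1.75) and 2 were not called, where 40.3% of all genes were lower. In M2 9 were lower, Pcna was higher (0.29) and 4 were not called, where 39.6% of all genes were lower. The proliferation marker Mki67 was lower in both, by 1.09 and 1.45 on the log2 scale, while the Schlafen genes moved in opposite directions.

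Across the 45 libraries the log2 levels of the members were correlated with each other at r = 0.84 to 0.99, a value that contains the shared polarization. After each library was set against the mean of its own genotype and polarization, the correlations ran from 0.09 (Slfn5 with Slfn9) to 0.93 (Slfn1 with Slfn8). Slfn9 was the least like the rest, at 0.09 to 0.46. Without mouse 4 of p.254I the highest remained Slfn1 with Slfn8 at 0.88, while Slfn9 had -0.13 to 0.23 with the others. These are descriptions over libraries that share mice.

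The genes outside the family whose deviations were most like those of each member were listed, and the Ifi, Ifit and Oas genes among them are known as interferon-induced. For Slfn1 they were Ifi204 (r = 0.94), Tgtp2 (0.94) and Ifi209 (0.93), and for Slfn2 B2m (0.95), the light chain of MHC class I, Gm4951 (0.92) and Ifi204 (0.91). For Slfn3 they were Tap1 (0.83), the peptide transporter, Ifi207 (0.81) and Sp110 (0.80), and for Slfn4 they included Oas1g (0.90) and Xaf1 (0.89). For Slfn5 they were Ifit2 (0.96), Ifit1 (0.95) and Ifit3 (0.94), and for Slfn8 Ms4a6c (0.94), Ifih1 (0.93), a sensor of double-stranded RNA, and Ifi209 (0.93). Slfn9 had weaker partners, Brip1os (0.70), Wdr48 (0.69) and Btk (0.68). By levels over the 45 libraries, in which polarization takes part, the closest were Ifi204, Stat2 and Ifi205 for Slfn1, Ifi204, Ifi211 and Ifi205 for Slfn2, and Ifit3, Ifi203 and Aftph for Slfn8, each at 0.99.

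A single mouse stood apart. In the M0 library of mouse 4 of p.254I all 7 Schlafen genes were at their highest of the 15 M0 libraries. Slfn4 was at 80.1 CPM, where the other 14 had 3.17 to 10.8 CPM, a ratio of 15.1 to their median. Slfn1 was at 72 CPM against 1.99 to 10.1 (ratio 11.7), and Slfn3 at 24.7 CPM against 7.25 to 12.2 (ratio 2.93). Slfn8, Slfn2, Slfn5 and Slfn9 were at 2.43, 2.01, 1.95 and 1.74 times the median of the others.

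In the same mouse's M2 library Slfn1 was at 9 CPM against 0.696 to 2.24 in the others, Slfn4 at 9.21 against 1.32 to 6.38, Slfn8 at 49 against 22 to 35.3, and Slfn2 at 325 against 243 to 320. In its M1 library none of the 7 was the highest, and their ratios to the median of the other 14 were between 0.881 (Slfn5) and 1.21 (Slfn4). Of 28 interferon genes tested, 19 were highest in this mouse's M0 library, 0 in its M1 library and 15 in its M2 library, where 17.1%, 9.46% and 14.2% of all genes were. Irf7 was at 1540 CPM in M0 against 88.6 to 294 CPM, but Cxcl10, at 14.9 CPM, was within the range of the others (3.24 to 22.4). Of the summed marker levels of this M0 library, the macrophage (11236 CPM), neutrophil (107 CPM), monocyte (107 CPM), T-cell (30.6 CPM) and dendritic-cell (0.626 CPM) sums were within the range of the other 14, and the fibroblast sum (9.78 CPM) was below it. In its M2 library the macrophage sum (8060 CPM) was above the other 14 (5473 to 7347 CPM) and the dendritic-cell sum (3.87 CPM) was below them (4.83 to 12.7 CPM), while the neutrophil, monocyte, T-cell and fibroblast sums were within their range. The part of such cells in these values was not tested.

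**Figure D4:**
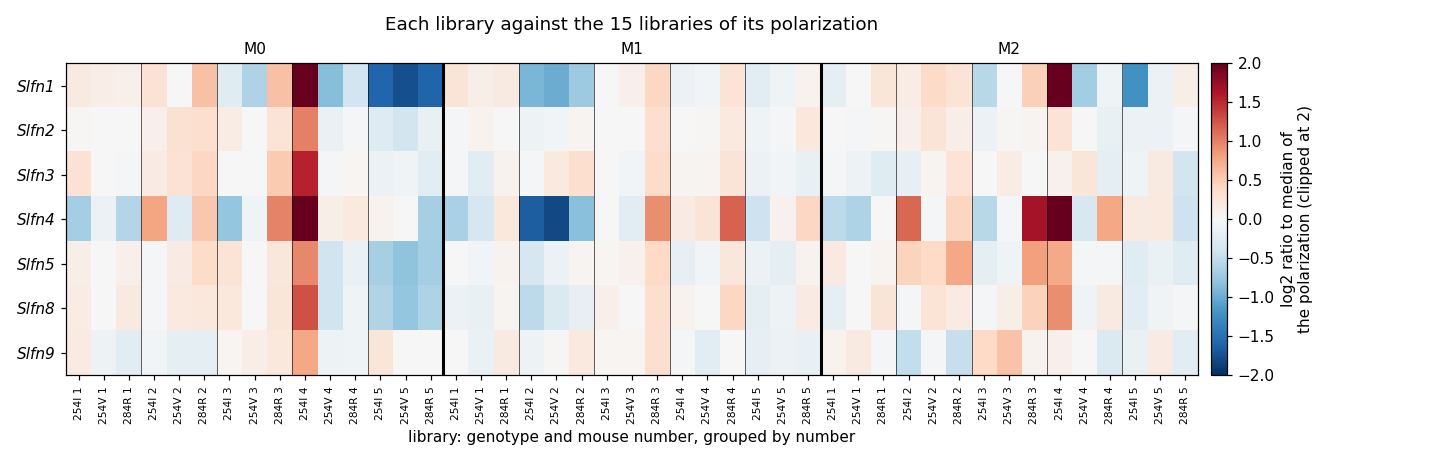
Each library's level as the log2 ratio to the median of the 15 libraries of its polarization, with genes in rows and libraries in columns grouped by mouse number. Colours are clipped at 2 in either direction. The M0 and M2 libraries of 254I mouse 4 are high, the M0 libraries of the mice numbered 5 are low for Slfn1, Slfn5 and Slfn8, and the M1 libraries of those numbered 2 are low for Slfn1 and Slfn4.

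Mice with the same number in different genotypes resembled each other. In M0 the mouse numbered 5 was the lowest of its genotype in all 3 genotypes for Slfn1, Slfn2, Slfn3, Slfn5 and Slfn8, against 8.9% of all genes. Slfn1 was at 2.24, 1.99 and 2.2 CPM in these mice of p.254I, p.254V and p.284R, and Slfn5 at 199, 180 and 197 CPM. In M1 the mouse numbered 2 was the lowest in all 3 genotypes for Slfn1 (112, 105 and 127 CPM), Slfn4 (13.5, 12.2 and 23.8 CPM) and Slfn8 (173, 203 and 222 CPM), against 13% of all genes. Of the 28 interferon genes 21 were lowest in this way in the M0 libraries numbered 5, and 16 in the M1 libraries numbered 2. The summed macrophage markers of these M0 libraries were 8151 to 8639 CPM against 9251 to 11467 CPM in the other M0 libraries, and the neutrophil sum 30.2 to 49.5 CPM against 39.3 to 330 CPM. The summed neutrophil markers of the M1 libraries numbered 2 were 98.8 to 153 CPM against 46.7 to 100 CPM in the rest. The part of such cells in the result was not tested. What the number stands for beyond the mouse is not given in the sources used here.

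The genotypes were compared to ask whether the Famin variant changed Schlafen expression. None of the 7 genes was called in any of the 16 comparisons of genotypes or of their interaction with polarization, by edgeR's quasi-likelihood test. Averaged over the polarizations, 0.0155% of all genes were called between p.284R and p.254I, 0.0155% between p.254V and p.254I and 0% between p.284R and p.254V. At an unadjusted p under 0.05 the members counted 0, 2 (Slfn1 and Slfn4, at -0.97 and -0.96 in p.254V) and 0, against 4.38%, 2.5% and 4.7% of all genes. These counts depended on mouse 4 of p.254I. Without it the p.254V differences of Slfn1 and Slfn4 were 0.00 and -0.04, and no member passed that level. Between p.284R and p.254I, Slfn4 (log2 0.59) and Slfn8 (0.24) then passed it. Between p.284R and p.254V, Slfn4 (0.63), Slfn5 (0.24) and Slfn8 (0.20) did, at the same differences as with the mouse but smaller SE. None of them was called. The DESeq2 Wald test and limma-voom, run as alternatives, called no member either.

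Averaged per mouse, the differences in log2(CPM + 1) between p.284R and p.254I ran from -0.12 (Slfn1) to 0.09 (Slfn4), and the smallest two-sided exact permutation p over 5 against 5 mice was 0.39, for Slfn9. Between p.254V and p.254I they ran from -0.38 (Slfn1) to -0.04 (Slfn9), with a smallest exact p of 0.39, for Slfn5. Between p.284R and p.254V the widest were 0.47 for Slfn4 (exact p = 0.16) and 0.27 for Slfn1 (exact p = 0.13), and the smallest exact p was 0.1, for Slfn8. The smallest p this design allows is 0.0079.

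Within M0, the widest differences were those of Slfn1 and Slfn4 against p.254I. Slfn1 was at 7.55, 8.19, 5.65, 72 and 2.24 CPM in the p.254I mice 1 to 5. It was at 7.36, 6.7, 4.38, 3.73 and 1.99 CPM in the p.254V mice and at 7.22, 10.1, 10.1, 5.16 and 2.2 CPM in the p.284R mice. Apart from mouse 4 of p.254I, the genotypes overlapped. Within each number the p.254V mouse was below the p.254I mouse in 5 of 5 pairs, as 2.46% of all genes were. Slfn4 was at 3.38, 9.41, 3.17, 80.1 and 5.7 CPM in p.254I, at 5.02, 4.53, 5.14, 5.91 and 5.43 CPM in p.254V, and at 3.61, 7.87, 10.8, 6.25 and 3.43 CPM in p.284R, with the same exception.

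The fitted log2 differences from p.254I in M0 were -2.00 ± 0.57 SE (Slfn1) and -1.96 ± 0.61 SE (Slfn4) for p.254V, and -1.43 ± 0.55 SE and -1.65 ± 0.60 SE for p.284R, with an adjusted p of 1 for each. No gene was called within M0 against p.254I (0% of genes for either variant). Without mouse 4 of p.254I the values were -0.31 (Slfn1) and -0.06 (Slfn4) for p.254V, and for p.284R they changed sign, to 0.26 and 0.24. At an unadjusted p under 0.05 the members counted 6 of 7 for p.254V and 3 of 7 for p.284R, where 1.79% and 1.08% of all genes passed, and without mouse 4 none of the 7 did for either variant, where 0.763% and 0.956% of all genes passed.

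**Figure D5:**
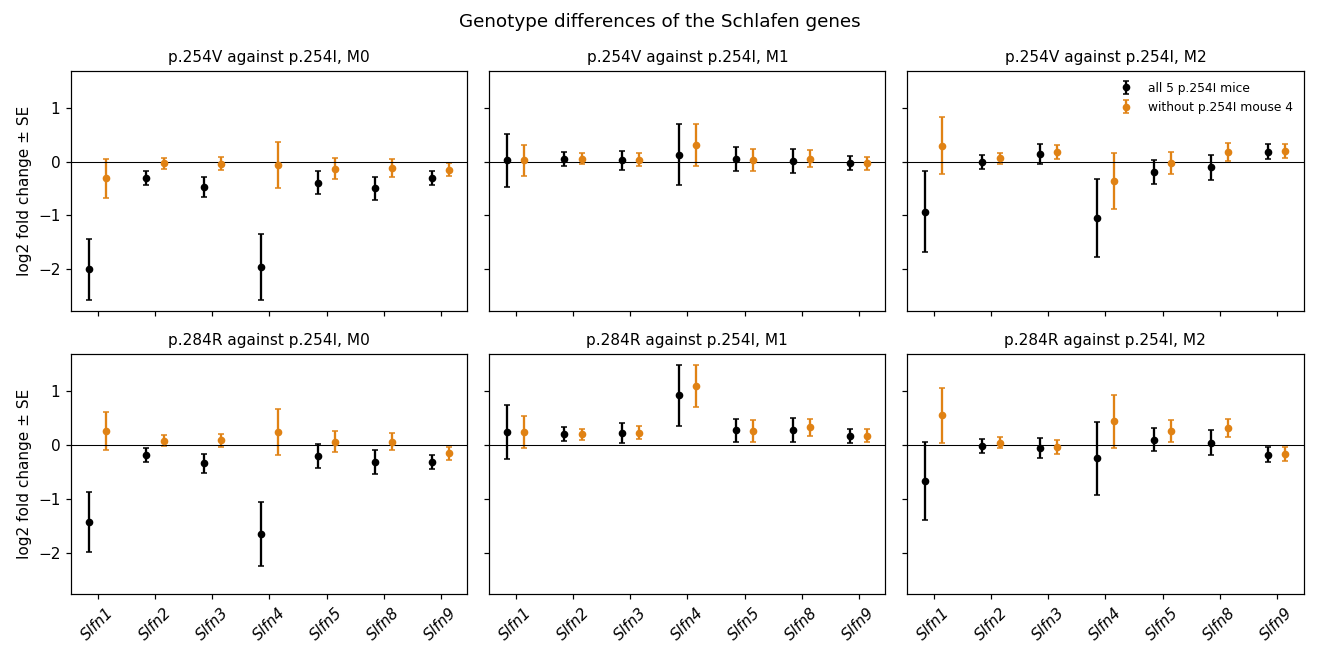
Log2 difference of each Schlafen gene between p.254V (upper row) or p.284R (lower row) and p.254I within each polarization, with bars of 1 SE from the edgeR fit. Black points use 5 p.254I mice and orange points leave out p.254I mouse 4. The M0 differences of Slfn1 and Slfn4 shrink towards 0 or change sign without that mouse, and the M1 differences between p.284R and p.254I stay between 0 and 1.09 with and without it.

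Within M1, p.284R was compared with p.254I, the comparison with the most called genes (0.263% of all). None of the 7 members was among them. Slfn4 was at 49.3, 23.8, 80.6, 96.7 and 56.5 CPM in the p.284R mice 1 to 5 and at 27.1, 13.5, 42.5, 47.8 and 31.8 CPM in the p.254I mice. The ranges overlapped, and within each number the p.284R mouse was higher, by 1.76 to 2.02 times. The fitted log2 difference was 0.92 ± 0.56 SE (adjusted p = 0.87), and 0.89 ± 0.47 SE with the number as a block (adjusted p = 0.52). That block gives each number the same shift in M0, M1 and M2, so it does not pair the mice within M1. Against p.254V, where 0.0775% of all genes were called, the Slfn4 difference was 0.79 ± 0.56 SE (adjusted p = 0.95). The 5 p.254V mice had 33.6, 12.2, 36.6, 50.7 and 45 CPM.

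The same direction was seen in other members. In M1 the p.284R mouse was above the p.254I mouse of its number in 5 of 5 pairs for Slfn2, Slfn4, Slfn5, Slfn8 and Slfn9 and in 4 of 5 for Slfn1 and Slfn3, where 6.02% of all genes were higher in 5 of 5. Against p.254V it was higher in 5 of 5 pairs for Slfn1, Slfn4, Slfn5 and Slfn8, where 7.39% of all genes were. These counts were made after the values had been seen. For Slfn5 every p.284R library (632 to 803 CPM) lay above every p.254I library (484 to 630 CPM), as 0.318% of all genes did, and the ranges of the other 6 members overlapped. The ratios of p.284R to p.254I in M1 ran from 1.01 to 1.25 for Slfn2, from 1.05 to 1.31 for Slfn5, from 1.13 to 1.28 for Slfn8 and from 1.01 to 1.23 for Slfn9. The median fitted log2 difference of the 7 members was 0.24, and at an unadjusted p under 0.05 none of the 7 passed, where 6.7% of all genes did. Without mouse 4 of p.254I, Slfn4 (log2 1.09 ± 0.39 SE), Slfn8 (0.33 ± 0.16 SE) and Slfn2 (0.20 ± 0.10 SE) passed that level, where 7.02% of all genes did, with adjusted p = 0.51, 0.71 and 0.69 by edgeR. With the mouse as a random block in limma-voom, Slfn4 passed it too (0.91 ± 0.38 SE, adjusted p = 0.66). In M0 and M2 no member was higher in p.284R than in p.254I in 5 of 5 pairs. Against p.254V, p.284R was higher in 5 of 5 M0 pairs for Slfn5 and Slfn8, where 2.43% of all genes were. In M2 no member was higher than in p.254V in all 5 pairs.

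Within M2, 0.00775% of all genes were called between p.284R and p.254I and 0% in the other comparisons, and no member was. The smallest unadjusted p was that of Slfn9 between p.284R and p.254V (log2 -0.36 ± 0.14 SE, 0.011 unadjusted, adjusted p = 1 by edgeR), a gene at 13.1, 9.67, 14, 10.9 and 11.5 CPM in p.284R and at 15, 13, 19.7, 13.3 and 14.9 CPM in p.254V. Within each number p.284R was lower, in 5 of 5 pairs, and 4.07% of all genes were.

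The interaction of genotype with polarization asks whether the M1 or M2 change differed between genotypes. None of the 7 members and 0% of all genes were called in any of the 4 interactions. The largest was that of Slfn4 for p.284R in M1, at 2.57 ± 0.82 SE on the log2 scale (unadjusted p = 0.0033, adjusted p = 1). Without mouse 4 of p.254I it was 0.85 ± 0.57 SE (unadjusted p = 0.15), and the interaction of Slfn1 went from 1.67 to -0.02.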

How the data were processed

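RNA libraries (TruSeq stranded mRNA, single 50-base reads) were made from 45 macrophage cultures of 15 mice. Per the labels, the authors trimmed reads with Trim Galore and aligned them with HISAT2 to mm10, while the series' design text names Cutadapt and STAR. The counter, its annotation and its use of strand are not given in the sources used here. The authors deposited raw read counts for 29307 genes and CPM for 11900 of these, where each CPM is a count scaled to that table's total in the library (100% of its values gave back whole reads, within 0.001, equal to the deposited counts).

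The counts were tested with edgeR 4.0.16 (R 4.3.3), by quasi-likelihood on 9 groups of 5 with TMM scaling and filterByExpr, and p-values were adjusted by Benjamini-Hochberg over 12905 genes. Called means an adjusted p under 0.05. CPM in the text use TMM library sizes, and 1 was added before log2 for correlations and permutations. Two-sided exact permutation tests compared 5 with 5 mouse means. DESeq2 1.42.0 and limma 3.58.1 were alternatives. Other settings were another scaling, other filters, blocks and leaving out each mouse, and the recovered reads were added after the data had been seen. The fits were tested on simulated counts. The members and lists were chosen with earlier results of these data known. Named genes are the members, other Slfn genes, the 3 genes most correlated with each member and examples from fixed lists, and some of these are not reported here. Figures were drawn with matplotlib 3.10.9.

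The number in a title was taken as the mouse. Same-numbered libraries of different genotypes deviated together from their group means, with correlations over 0.1 in 15 of 15 pairs in M0 and in M1 and in 13 of 15 in M2. Libraries of the same mouse did so in 13 of 15 pairs for M0 and M1, 15 of 15 for M0 and M2 and 10 of 15 for M1 and M2. Promoters are RefSeq's, matched for all 7 members by symbol, and exons and 50-base stretches come from GENCODE M21.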

Additional observations from a re-analysis of the deposited data

Results flagged for a closer look

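Of 63 groups of 5 values (7 genes in 9 groups), 10 held a library whose gap to its nearest neighbour took over 0.71 of the group's range. Chance flags about 1 in 20 groups when values follow a normal distribution, which was not checked for these CPM, used without a log. Mouse 4 of p.254I gave 7 of the 10: in M0 it was the highest for Slfn1 (72 CPM), Slfn2 (656 CPM), Slfn3 (24.7 CPM), Slfn4 (80.1 CPM) and Slfn8 (227 CPM), and in M2 for Slfn1 (9 CPM) and Slfn8 (49 CPM). The groups share these libraries, so the 7 are not independent of each other.

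The other 3 were libraries of mouse 2 of p.254V. Slfn1 was lowest there in M1 (105 CPM), Slfn3 was highest in M0 (10.3 CPM) and Slfn5 was highest in M2 (174 CPM). The low Slfn1 value in M1 was shared by the mice numbered 2 of p.254I (112 CPM) and p.284R (127 CPM), each the lowest of its genotype.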

How the results depend on the processing

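The calls on polarization were the same under all 25 alternatives that could be fitted for them. Of the values of a member, 525 of 525 kept their direction and an adjusted p under 0.05, the largest being 0.013. The 16 comparisons of genotypes and interactions gave 2737 values under the alternatives, of which 0 were called, with a smallest adjusted p of 0.5. With the replicate block (the mouse number, or the mouse, as a term) 7 of 7 members were called in each polarization comparison and 0 in each genotype comparison, so it changed no call of a member. Leaving out mouse 4 of p.254I reversed the M0 differences between p.284R and p.254I, to 0.26 for Slfn1 and 0.24 for Slfn4, since that library holds the high value, and leaving out single mice gave -1.72 to 0.26 and -1.93 to 0.24. The exact permutation tests passed 0 members in each comparison, and without single mice between 0 and 2 for p.284R against p.254V (2 without 284R replicate 5) and 0 in the others. Counts over all genes were less stable: within M1, p.284R against p.254I gave 34 genes, 64 with the replicate block and between 0 (without 284R replicate 5) and 109 (without 284R replicate 2), and p.284R against p.254V gave 10, 36 with the block and between 0 and 65. Averaged, the counts against p.254I were 2 for each variant and ranged from 0 to 19 (p.284R) and from 0 to 5 (p.254V), and between p.284R and p.254V from 0 to 7. By Spearman rank correlation 2 of the 3 genes nearest in deviations were again in the nearest 3 for each member other than Slfn9 (1 of 3), but by levels only 0 to 2 were. Each genotype had 5 mice, and the fewest reads behind a member were 14, for Slfn1 (median 200). Counting error and differences between mice were not separated.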
